A study of Mus musculus with 12 samples.

Results

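Expression of the Eph receptors and ephrins that position cells along the intestinal crypt was followed in mouse small intestinal crypts and colon tumors with and without the Ctnnb1 enhancer ieCtnnb1. The genes were taken by name from the deposited expression tables: the EphB receptors Ephb2, Ephb3 and Ephb4, the EphA receptors Epha1 and Epha2, the B-type ephrins Efnb1 and Efnb2, and the A-type ephrin Efna1. All 8 were found in both tables, among 54532 genes, and all 8 passed the filter on low values in both. Eph receptors are tyrosine kinases whose ligands, the ephrins, sit on the surface of neighboring cells, so signaling needs cell contact and can run into either cell. EphB receptors bind mainly the transmembrane B-type ephrins, and EphA receptors mainly the lipid-anchored A-type ephrins. In the intestine EphB2 and EphB3 are known as Wnt/β-catenin targets of the lower crypt, where repulsion from ephrin-B-bearing cells above keeps Paneth cells at the base and proliferating cells below the villus.

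RNA-seq was performed on 12 libraries in 4 groups of 3, all from adult, untreated mice on a C57BL/6 background. Crypts came from the small intestine of wild-type mice (WT) and of mice homozygous for the enhancer deletion (ieCtnnb1KO in the sample labels, Ctnnb1Δi.enh below). Tumors came from the colon of APCmin/+ mice (ApcMin/+ below) and of ApcMin/+ mice that also carried the deletion (Ctnnb1Δi.enh;ApcMin/+), so both tumor groups share the truncating Apc allele; the study describes tumor-bearing mice of 5 months. The deletion was made in the germline and is present in every cell of the mouse, crypts were released with a chelator and passed through a filter, and tumor tissue was taken without sorting of cells. The labels only number the replicates of a group, while the study describes them as biological replicates from different mice. Values are FPKM, the number of fragments on a gene relative to its length and to the depth of the library, and a library held between 14457896 and 16156712 fragments on genes. The precision this gives is high for the EphB and ephrin genes: the lowest member count in any library was 368 fragments, for Efna1 in crypts, and Ephb4 reached 4850 fragments in tumors. The tables of crypts and tumors were separate files and may have been normalized separately, so levels were not tested between them. The interaction below compares only the differences found within each table.

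Ctnnb1, which encodes β-catenin and is the gene the deleted enhancer acts on, was read first as a check of the labels. In crypts its level was 121, 134 and 123 FPKM in WT and 102, 104 and 105 FPKM in Ctnnb1Δi.enh. In tumors it was 299, 363 and 358 FPKM in ApcMin/+ and 279, 248 and 250 FPKM in Ctnnb1Δi.enh;ApcMin/+. The libraries with the deletion were lower than every control in both tissues, with log2 fold changes of -0.28 ± 0.12 (SE) in crypts and -0.39 ± 0.13 (SE) in tumors, and limma adjusted p of 0.849 and 0.303.

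Some libraries stood apart from their group before any comparison was made. The summed FPKM of 9 Paneth cell markers was 80285 in WT crypt replicate 3 against 30563 and 46276 in the other WT libraries, and the summed FPKM of 8 enterocyte markers was 9816 there against 3438 and 5182. The same library had the lowest summed level of 5 stem cell markers of all 6 crypt libraries, 627 FPKM against 907 to 1109 FPKM in the other WT libraries. The fold changes of the 8 genes in crypts, and the interaction, are therefore also given without it; other lists are given with all libraries. In tumors the X-inactivation transcript Xist was at 114 FPKM in ApcMin/+ replicate 3 and 61.4 FPKM in Ctnnb1Δi.enh;ApcMin/+ replicate 3, and at most 0.062 FPKM in the other tumor libraries, so each tumor group held 1 Xist-positive library of 3. In crypts Xist was at most 0.055 FPKM. This bears on Efnb1, which lies on the X chromosome.

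The labelled tissues were checked against marker genes. Crypts held high levels of the stem cell gene Olfm4 (mean 749 FPKM in WT) and of the Paneth defensin Defa24 (mean 12578 FPKM over the 6 libraries), the most abundant of their lists. Markers of other tissue layers were low there. Of 9 endothelial genes 7 had a mean under 0.1 FPKM, Esam being the most abundant at 1.71 FPKM. All 5 smooth muscle genes had a mean under 1 FPKM, as had 6 of 7 fibroblast genes, with Dcn the most abundant at 2.74 FPKM. Tumors expressed epithelial keratin Krt8 at a mean of 1588 FPKM, and also endothelial, fibroblast and smooth muscle genes, led by Eng (18.4 FPKM), Col1a1 (121 FPKM) and Acta2 (100.3 FPKM). Olfm4 was at a mean of 0.18 FPKM in ApcMin/+ tumors, although other stem cell markers were present, led by Slc12a2 at 89.0 FPKM. In both tissues fewer cells of a type and less RNA per cell cannot be told apart.

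**Figure D1:**
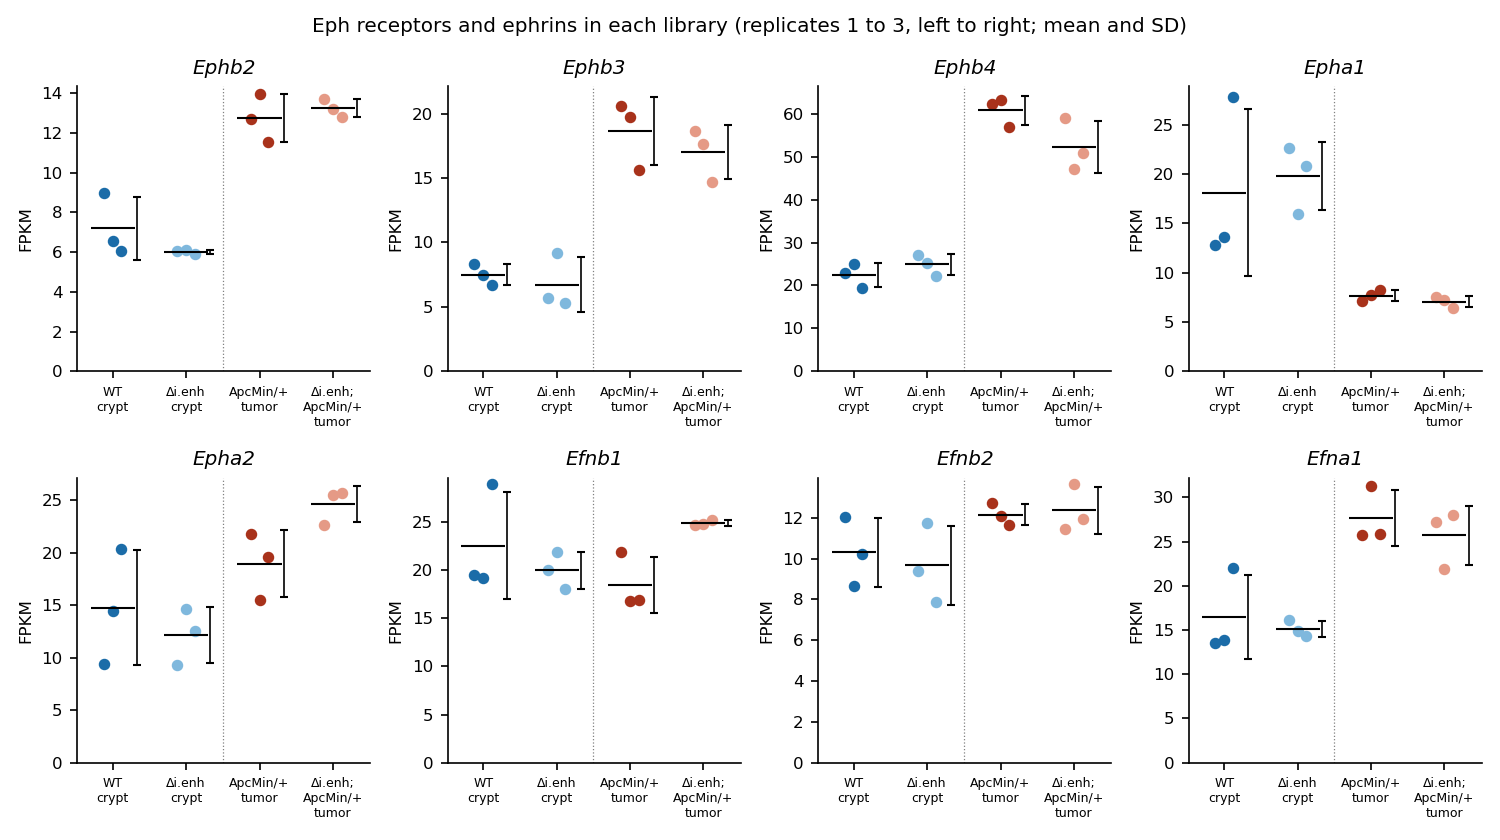
FPKM of the 8 genes in each of the 12 libraries, with a panel per gene. Points are replicates 1 to 3, horizontal lines are group means and bars are SD. The dotted line separates tables that may have been normalized separately. Ephb2, Ephb3 and Ephb4 lie higher and Epha1 lower in every tumor library than in every crypt library, and Epha2 and Efnb1 are higher in each Ctnnb1Δi.enh;ApcMin/+ library than in each ApcMin/+ library.

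The promoters of the 8 genes were read for the letters shared by TCF/LEF binding sites, since these factors carry the β-catenin signal to DNA. RefSeq start sites (build GRCm38.p6) gave 9 windows for the 8 genes, with Efna1 having a pair, each running from 250 bases before to 50 bases after the start. CTTTGA, searched on both strands, was found in 1 of the 9 windows, that of Epha2, 209 bases before the start on the strand of the gene. Of all 32851 RefSeq promoter windows of this length, 16% held it. The upstream bases are shown for Ephb2 and Ephb3, the receptors known as Wnt targets, and for Epha2 and Efnb1, the genes whose tumor groups did not overlap; capitals mark CTTTGA. The windows are chr4:136836013-136836262 (minus strand) for Ephb2, chr16:21204545-21204754 (plus strand) for Ephb3, chr4:141300971-141301220 (plus strand) for Epha2 and chrX:99135811-99136060 (plus strand) for Efnb1, all upstream of the annotated gene.
Ephb2: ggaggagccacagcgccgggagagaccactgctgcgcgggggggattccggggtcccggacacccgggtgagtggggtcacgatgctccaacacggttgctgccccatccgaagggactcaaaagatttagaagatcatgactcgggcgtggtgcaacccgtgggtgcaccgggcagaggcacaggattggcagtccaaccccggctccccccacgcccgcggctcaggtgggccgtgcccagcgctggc
Ephb3: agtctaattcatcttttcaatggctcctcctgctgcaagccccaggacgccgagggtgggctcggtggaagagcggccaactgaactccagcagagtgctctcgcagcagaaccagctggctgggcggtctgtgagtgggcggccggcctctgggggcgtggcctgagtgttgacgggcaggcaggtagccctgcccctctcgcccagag
Epha2: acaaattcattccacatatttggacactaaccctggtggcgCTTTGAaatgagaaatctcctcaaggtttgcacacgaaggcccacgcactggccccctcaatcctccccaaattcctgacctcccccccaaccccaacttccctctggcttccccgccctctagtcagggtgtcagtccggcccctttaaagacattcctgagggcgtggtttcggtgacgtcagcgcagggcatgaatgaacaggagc
Efnb1: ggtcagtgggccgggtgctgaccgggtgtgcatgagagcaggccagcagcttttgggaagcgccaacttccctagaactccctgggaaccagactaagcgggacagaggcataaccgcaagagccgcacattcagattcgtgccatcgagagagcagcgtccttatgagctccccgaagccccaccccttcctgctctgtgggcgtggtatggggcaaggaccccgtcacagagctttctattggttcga
The absence of these letters from the other windows says only that they are not in those bases. The windows were rich in G and C, from 54.7% in Epha2 to 72.3% in Efnb2, against a median of 52.7% over all RefSeq windows.

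The first comparison asks whether the enhancer deletion goes with other levels of these genes in crypts. None of the 8 was called at an adjusted p under 0.05 by limma, as for all 14176 genes tested (0%). At an unadjusted p under 0.05, 0 of 8 were higher and 0 of 8 lower in Ctnnb1Δi.enh, against 494 (3.48%) higher and 335 (2.36%) lower among all genes tested. The groups overlapped for all 8, while 963 genes (6.79%) were higher and 730 (5.15%) lower without overlap. The log2 fold change, on the scale of FPKM + 0.5, was above 0 for 2 of the 8 and below 0 for 6, with a median of -0.12 against 0.014 over all genes. Without WT replicate 3 it was above 0 for 5 and below 0 for 3. In that fit 1 of 8, Epha1, had an unadjusted p under 0.05, against 735 genes higher and 350 lower of 14063 tested. The 3 genes that then had an adjusted p under 0.05 were Gkn1, Gkn2 and Pgc, which are stomach genes outside the family. With 3 libraries on each side, the smallest p that exact permutation allows is 0.1.

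Ephb2, the EphB receptor graded from the crypt base upward, is a gene of 12608 exonic bases on chromosome 4, from 136647539 to 136835988. Its level was 8.99, 6.56 and 6.05 FPKM in WT crypts and 6.05, 6.11 and 5.92 FPKM in Ctnnb1Δi.enh crypts. WT replicate 1 stood above the other 5 libraries, which lay close together, and the groups overlapped. This gave a log2 fold change of -0.22 ± 0.16 (SE), with a 95% interval from -0.60 to 0.16, a limma adjusted p of 0.896 and an exact permutation p of 0.3. It was -0.059 without WT replicate 1 and -0.33 without WT replicate 3, so much of it rests on replicate 1.

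Ephb3, which acts beside Ephb2 and is known in Paneth cells, lies on chromosome 16 from 21204755 to 21223305. Its level was 8.29, 7.49 and 6.70 FPKM in WT crypts and 5.67, 9.18 and 5.33 FPKM in Ctnnb1Δi.enh crypts. The highest and the lowest value both belonged to Ctnnb1Δi.enh libraries, and the log2 fold change was -0.18 ± 0.21 (SE; limma adjusted p = 0.931). Without Ctnnb1Δi.enh replicate 2 it was -0.41, with an unadjusted p under 0.05, without Ctnnb1Δi.enh replicate 3 it was -0.044, and without WT replicate 3 it was -0.25. Ephb4, best known as the venous partner of ephrin-B2 and also made by epithelium, was at 22.9, 25.0 and 19.4 FPKM in WT and 27.2, 25.3 and 22.3 FPKM in Ctnnb1Δi.enh. Its groups overlapped, with a log2 fold change of 0.15 ± 0.14 (SE; limma adjusted p = 0.909) that was 0.053 without WT replicate 3. Of the endothelial markers, Cdh5, Kdr and Emcn were at most 0.0215 FPKM in every crypt library, while Esam and Pecam1 were at means of 1.71 and 0.637 FPKM; the part of endothelial cells in the Ephb4 level of crypts was not tested.

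Among the EphA receptors, Epha1 was the most uneven gene in WT crypts. Its level was 12.8, 13.6 and 27.8 FPKM in WT and 22.7, 15.97 and 20.8 FPKM in Ctnnb1Δi.enh. WT replicate 3 was the highest of the 6 libraries and the other WT libraries the lowest. Its log2 fold change was 0.20 ± 0.30 (SE, limma adjusted p = 0.946) and 0.55 without WT replicate 3, so that library alone moves it by more than its SE. It was 0.0062 without WT replicate 1 and 0.049 without WT replicate 2. Epha1 overlaps Zyx on the opposite strand by 1727 bases, and without a stated use of strand in counting, reads of the overlap cannot be told apart; Zyx was at 17.98, 17.8 and 19.8 FPKM in WT and 22.2, 21.3 and 22.4 FPKM in Ctnnb1Δi.enh crypts.

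Epha2, an EphA receptor common in epithelia, was at 9.45, 14.4 and 20.4 FPKM in WT and 9.30, 14.7 and 12.6 FPKM in Ctnnb1Δi.enh crypts. The groups overlapped, with WT replicate 3 again the highest. The log2 fold change of -0.22 ± 0.29 (SE; limma adjusted p = 0.935) became 0.034 without that library.

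The ligands showed the same library. Efnb1, an ephrin of the cells above the crypt base, was at 19.5, 19.2 and 28.9 FPKM in WT and 20.1, 21.9 and 18.05 FPKM in Ctnnb1Δi.enh crypts. Efna1, the most abundant A-type ephrin in both tables, was at 13.52, 13.9 and 22.0 FPKM in WT and 16.1, 14.9 and 14.3 FPKM in Ctnnb1Δi.enh. For both, WT replicate 3 lay above the other 5 libraries, and the log2 fold changes of -0.15 ± 0.18 (SE) and -0.085 ± 0.20 (SE) became 0.045 and 0.14 without it; limma adjusted p with all libraries was 0.933 and 0.970. Efnb2, the other ephrin-B of the crypt axis, was at 12.03, 8.64 and 10.2 FPKM in WT and 9.39, 11.7 and 7.88 FPKM in Ctnnb1Δi.enh, with overlapping groups and a log2 fold change of -0.092 ± 0.18 (SE; limma adjusted p = 0.964), which was -0.091 without WT replicate 3. Efnb2 overlaps 3 other genes on its own strand, each with a mean of at most 0.257 FPKM in both tables. Epha1, Epha2, Efnb1 and Efna1 were thus highest of all crypt libraries where Paneth cell and enterocyte markers were highest; the part of cell composition in their levels was not tested.

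The order of the levels in WT crypts was Efnb1 (mean 22.5 FPKM), Ephb4, Epha1, Efna1, Epha2, Efnb2, Ephb3 and Ephb2 (mean 7.20 FPKM). Neighbors in this order overlapped in their ranges except Efnb2, which lay above Ephb3 in every library. In Ctnnb1Δi.enh crypts Ephb4 came first, above Efnb1 in every library, and Ephb3 and Ephb2 again came last.

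**Figure D2:**
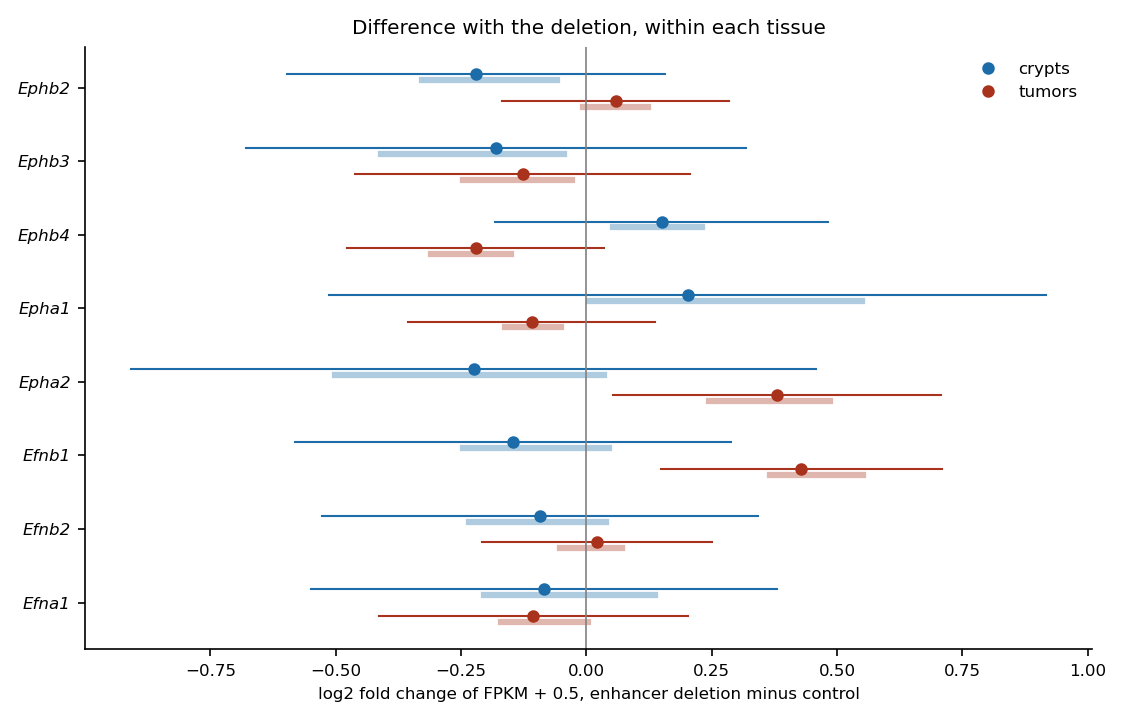
Log2 fold change of FPKM + 0.5 with the enhancer deletion for each gene, in crypts and in tumors, with thin lines for 95% intervals from limma and thick pale lines for the range when each library is left out in turn. The tumor intervals of Epha2 (0.053 to 0.71) and Efnb1 (0.15 to 0.71) lie above 0, while the other 14 intervals include 0.

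The same question was asked in tumors. Epha2 and Efnb1 were higher in every Ctnnb1Δi.enh;ApcMin/+ library than in any ApcMin/+ library, by 29.9% and 34.5% of the control mean, and the other 6 genes overlapped. None of the 8 was called at an adjusted p under 0.05 by limma, as for all 16743 genes tested (0%). At an unadjusted p under 0.05, 2 of 8 were higher and 0 of 8 lower, against 1417 (8.46%) higher and 1004 (6%) lower among all genes tested. Groups did not overlap for 2 of 8 in the higher and 0 of 8 in the lower direction, against 1912 (11.4%) and 1781 (10.6%) of all genes. The pair is too small a count to be set apart from that background. The log2 fold change was above 0 for 4 of 8 genes and below 0 for 4, with a median of -0.043 against 0.0075 over all genes; Efnb2, which lay closest to 0, turned below 0 under 4 other scalings.

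The balance of directions over all genes depended on the scaling. Of the tumor genes with an unadjusted p under 0.05, 58.5% were higher with the deletion, against 44.4% after rescaling to the same total, 44.6% after rescaling without the 50 most abundant genes, 46.5% after quantile normalization and 41.6% with voom on the recovered fragments. In crypts the share was 59.6%, against 62.1%, 37.2%, 53.1% and 60.7% in the same order. Under these 4 scalings the tumor log2 fold change stayed between 0.31 and 0.35 for Epha2 and between 0.35 and 0.39 for Efnb1, and Ephb4 was at -0.26 to -0.35. Efnb1 and Ephb4 had an unadjusted p under 0.05 under all 4, and Epha2 under all but quantile normalization. Over all genes, 1075 were higher and 1346 lower at such a p of 16749 tested after rescaling to the same total. These counts were 1079 and 1340 of 16750 without the 50 most abundant genes, and 1116 and 1282 of 16743 after quantile normalization. With voom they were 1084 and 1522 of 16743.

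Ephb2 and Ephb3 differed little between the tumor groups. Ephb2 was at 12.7, 14.0 and 11.6 FPKM in ApcMin/+ and 13.7, 13.2 and 12.8 FPKM in Ctnnb1Δi.enh;ApcMin/+ tumors. Ephb3 was at 20.6, 19.7 and 15.6 FPKM in ApcMin/+ and 18.7, 17.6 and 14.7 FPKM in Ctnnb1Δi.enh;ApcMin/+. In both genes the groups overlapped, and replicate 3 was the lowest library of its group. The log2 fold change of Ephb2 was 0.059 ± 0.095 (SE), with a 95% interval from -0.17 to 0.29 and a limma adjusted p of 0.791. For Ephb3 it was -0.13 ± 0.14 (SE), with an interval from -0.46 to 0.21 and a limma adjusted p of 0.684; leaving out each library in turn gave -0.25 to -0.028.

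Ephb4 was the most abundant of the 8 genes in tumors, at 62.4, 63.3 and 57.1 FPKM in ApcMin/+ and 59.1, 47.2 and 50.8 FPKM in Ctnnb1Δi.enh;ApcMin/+. Replicate 1 with the deletion lay inside the range of the controls and the other libraries with the deletion lay below it. With the deletion it differed by a log2 fold change of -0.22 ± 0.11 (SE; limma adjusted p = 0.389, exact permutation p = 0.2), which ranged from -0.31 to -0.15 when each library was left out. The summed level of the 9 endothelial markers was 65.0, 60.2 and 51.3 FPKM in ApcMin/+ and 71.4, 69.8 and 74.9 FPKM in Ctnnb1Δi.enh;ApcMin/+, without overlap, although only 4 of the 9 did not overlap by themselves; the part of endothelial cells in the Ephb4 difference was not tested.

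Epha2 was at 21.8, 15.5 and 19.6 FPKM in ApcMin/+ and 22.7, 25.6 and 25.7 FPKM in Ctnnb1Δi.enh;ApcMin/+ tumors. All 3 libraries with the deletion lay above the controls, by a narrow gap between the closest libraries. This was a log2 fold change of 0.38 ± 0.14 (SE; unadjusted limma p = 0.0290, limma adjusted p = 0.320, exact permutation p = 0.1, the smallest possible). It was 0.24 without ApcMin/+ replicate 2, and the unadjusted p was no longer under 0.05 there. The same loss was seen without Ctnnb1Δi.enh;ApcMin/+ replicate 2 or 3, with a replicate block, and after quantile normalization. With replicates 1 and 2 of both groups alone the log2 fold change was 0.38, and the unadjusted p was again not under 0.05. Epha1 was the least abundant of the 8, at 7.08, 7.68 and 8.21 FPKM in ApcMin/+ and 7.55, 7.19 and 6.45 FPKM in Ctnnb1Δi.enh;ApcMin/+. Its groups overlapped, with a log2 fold change of -0.11 ± 0.10 (SE; limma adjusted p = 0.633) that ranged from -0.16 to -0.050 when each library was left out.

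Efnb1 had the smallest p of the 8 genes. Its level was 21.8, 16.8 and 16.9 FPKM in ApcMin/+ and 24.7, 24.8 and 25.2 FPKM in Ctnnb1Δi.enh;ApcMin/+ tumors. The 3 libraries with the deletion lay close together and above every control, of which replicate 1 was nearest. The log2 fold change was 0.43 ± 0.12 (SE), with a 95% interval from 0.15 to 0.71, an unadjusted limma p of 0.00880, a limma adjusted p of 0.278 and an exact permutation p of 0.1. With replicates 1 and 2 of both groups alone, none of which held Xist, it was 0.36 and no longer had an unadjusted p under 0.05, with 4 libraries in the fit; this choice of libraries was made after Xist had been seen.

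The other ligands did not separate the tumor groups. Efnb2 was at 12.7, 12.1 and 11.7 FPKM in ApcMin/+ and 11.5, 13.7 and 11.9 FPKM in Ctnnb1Δi.enh;ApcMin/+. Efna1 was at 25.8, 31.3 and 25.9 FPKM in ApcMin/+ and 27.2, 21.9 and 28.0 FPKM in Ctnnb1Δi.enh;ApcMin/+. Both overlapped, with log2 fold changes of 0.021 ± 0.096 (SE) and -0.11 ± 0.13 (SE) and limma adjusted p of 0.939 and 0.716, and that of Efnb2 changed sign under other scalings.

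The order of the levels in ApcMin/+ tumors was Ephb4 (mean 60.9 FPKM), Efna1 (27.6), Epha2 (19.0), Ephb3 (18.7), Efnb1 (18.5), Ephb2 (12.7), Efnb2 (12.2) and Epha1 (7.66). Ephb4 lay above Efna1, Efna1 above Epha2, Efnb1 above Ephb2 and Efnb2 above Epha1 in every library; Epha2, Ephb3 and Efnb1 overlapped with each other, as did Ephb2 and Efnb2. In Ctnnb1Δi.enh;ApcMin/+ tumors Efnb1 and Epha2 stood above Ephb3 in every library.

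Markers of several cell types were also higher in the tumors in which Efnb1 and Epha2 were higher. All 7 goblet cell markers were higher without overlap, with a summed level of 1407, 1420 and 1455 FPKM in ApcMin/+ and 2689, 3222 and 2848 FPKM in Ctnnb1Δi.enh;ApcMin/+, led in abundance by Spink4. Among them Muc2, the main gel-forming mucin, had a mean of 129 ± 19.5 FPKM (SD) in ApcMin/+ and 324 ± 84.3 FPKM (SD) with the deletion (log2 fold change 1.31 ± 0.21, SE; limma adjusted p = 0.269), and Zg16 and Agr2, which also belong to goblet cells, had log2 fold changes of 0.99 and 1.03. Krt20, a keratin of differentiated surface cells, was at 92.9, 47.8 and 49.2 FPKM in ApcMin/+ and 112, 125 and 115 FPKM in Ctnnb1Δi.enh;ApcMin/+. Of the other 7 enterocyte markers, 6 had a mean under 1 FPKM in tumors.

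Some markers outside the epithelium were higher as well, where 11.4% of all genes were higher without overlap. Of 9 endothelial markers 4 did not overlap and were higher, with Pecam1, Esam and Eng at log2 fold changes of 0.47, 0.66 and 0.30, and Cdh5, which defines the cell type, overlapped at means of 13.3 and 13.8 FPKM, while Kdr was below 0 at -0.088. Of 7 fibroblast markers 3 did not overlap and were higher, with Pdgfra, Dcn and Col1a1 at log2 fold changes of 0.32, 0.40 and 0.67; their summed level was 363, 229 and 219 FPKM in ApcMin/+ and 363, 469 and 379 FPKM with the deletion. Of 5 smooth muscle markers 2 did not overlap and were higher, among them Acta2 at 0.32, and Des and Cnn1 were below 0, at -0.18 and -0.27. Of 6 epithelial markers 5 were higher without overlap, with Vil1 at 0.49. The part of cell composition in the levels of Efnb1 and Epha2 was not tested.

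**Figure D3:**
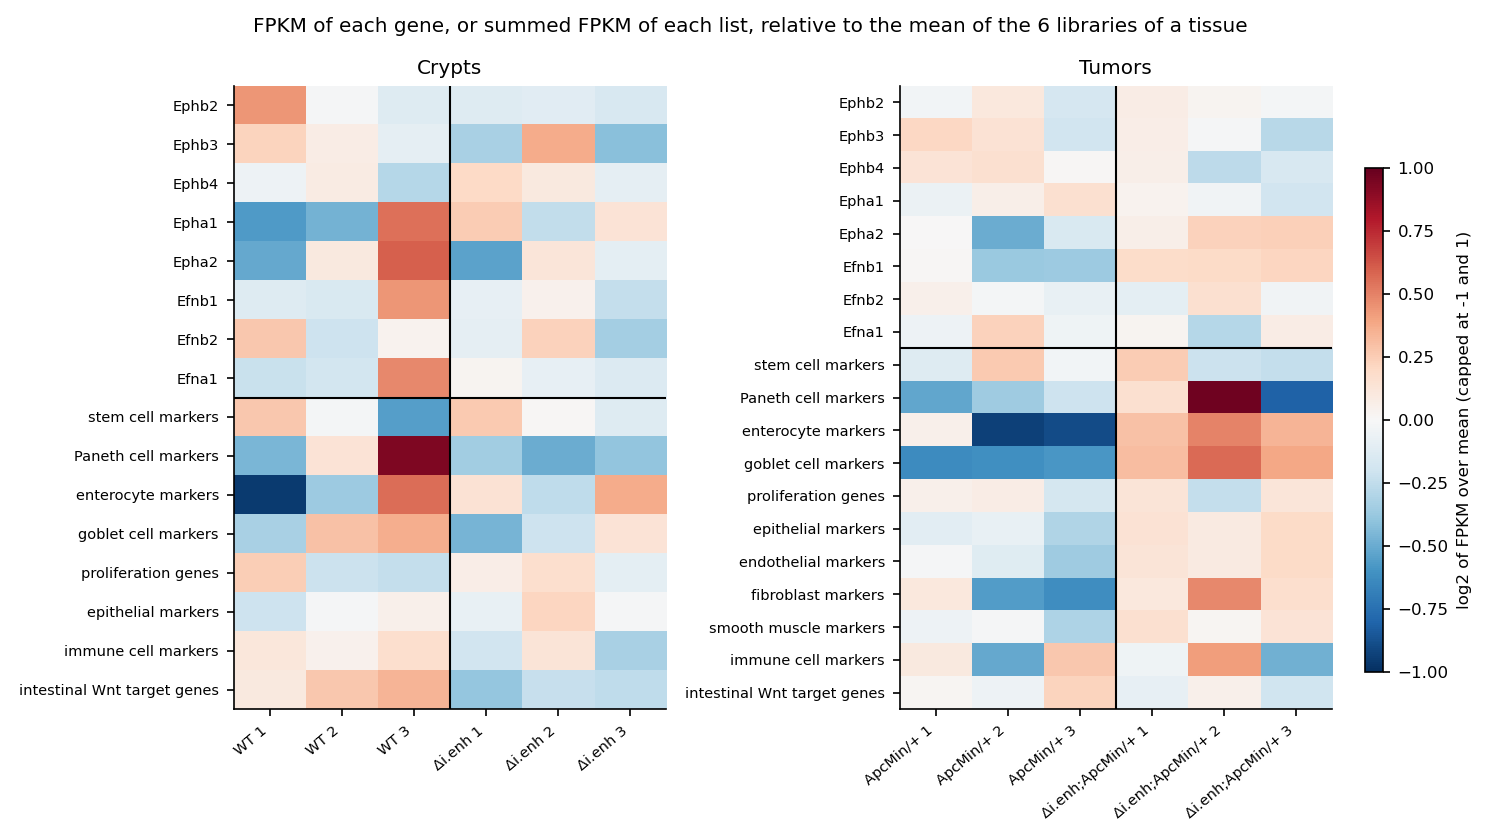
Level of each gene, and summed level of each marker list, in every library as log2 of its FPKM over the mean of the 6 libraries of that tissue, with colors capped at -1 and 1; lists close to absent in crypts are left out of the crypt panel. WT crypt replicate 3 is red for Epha1, Epha2, Efnb1, Efna1, Paneth cell and enterocyte markers. In tumors ApcMin/+ replicates 2 and 3 are lowest for Efnb1, Epha2, enterocyte markers (mostly Krt20), endothelial markers and fibroblast markers.

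Whether the difference with the deletion itself differs between tumors and crypts was tested as an interaction over the 12 libraries. Efnb1 had the smallest p of the 8, with a tumor difference that exceeded the crypt difference by 0.57 ± 0.23 (SE; limma adjusted p = 0.566). It was the 1 of 8 genes with an unadjusted p under 0.05, against 1133 (8.47%) of the 13370 genes tested, and 0 genes (0%) had an adjusted p under 0.05. Ephb4 and Epha2 followed, at -0.37 ± 0.17 (SE) and 0.60 ± 0.35 (SE). For Ephb2 the difference was 0.28 ± 0.19 (SE), with an interval from -0.13 to 0.69. Without WT crypt replicate 3 the difference was smaller for Efnb1 (0.38), Epha2 (0.35) and Ephb4 (-0.27) and larger for Epha1 (-0.66) and Ephb2 (0.39). It was 0.13 for Ephb3, 0.11 for Efnb2 and -0.24 for Efna1 without that library. In that fit Efnb1, Epha1 and Ephb2 had an unadjusted p under 0.05, but limma adjusted p of 0.592, 0.472 and 0.594. The share of 8.47% belongs to the fit of all 12 libraries. No share over all genes is given for the smaller fit, so these calls cannot be set against a background. Efnb1 kept an unadjusted p under 0.05 in 9 of the 12 fits that each leave out a library.

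Levels in crypts and tumors can only be set side by side, since the tables may have been normalized separately. Gut segment, tumor state, Apc genotype and preparation (filtered crypts against unsorted tissue) also change together and cannot be told apart. Age may differ as well, and only the tumor groups held Xist-positive libraries. Ephb2, Ephb3 and Ephb4 were higher in each of the 6 tumor libraries than in each of the 6 crypt libraries. Between the means of ApcMin/+ tumors and WT crypts the ratio was 1.77 for Ephb2 (12.7 against 7.20 FPKM), 2.49 for Ephb3 (18.7 against 7.49 FPKM) and 2.71 for Ephb4 (60.9 against 22.4 FPKM). Epha1 went the other way: every tumor library lay below every crypt library, with a mean of 7.66 ± 0.57 FPKM (SD) against 18.1 ± 8.44 FPKM (SD), a ratio of 0.423. Zyx, on its opposite strand, was not lower in tumors, at means of 26.6 FPKM in ApcMin/+ and 18.5 FPKM in WT crypts. Epha2, Efnb1 and Efnb2 overlapped between the tissues, with ratios of 1.28, 0.821 and 1.18. Efna1 was above WT crypts in all ApcMin/+ tumors, with a ratio of 1.68, but overlapped over the 12 libraries.

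A large share of crypt fragments came from the mitochondrial genome, between 10.7% and 19.0% of each crypt library against 1.45% to 2.27% of each tumor library. Counted relative to the fragments outside mitochondrial genes, a scale chosen after these shares had been seen, the ratios were 1.54 for Ephb2, 2.18 for Ephb3, 2.37 for Ephb4 and 0.374 for Epha1, and the 12 libraries still did not overlap for these 4 genes. Ranks within a library do not depend on its scaling: among all genes Ephb3 stood at ranks 4915 to 6948 in crypt libraries and 2948 to 4295 in tumor libraries, Ephb4 at 1827 to 2461 and 707 to 1138, and Epha1 at 1744 to 3632 and 6782 to 7811. For Ephb2 the ranks overlapped, at 4924 to 6525 in crypts and 4304 to 5204 in tumors. Endothelial cells, which make Ephb4 and Efnb2, were represented in tumors but hardly in crypts (summed markers at most 3.04 FPKM in any crypt library and at least 51.3 FPKM in any tumor library); their part in the tumor level of Ephb4 was not tested.

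The balance between receptor and ligand was read within each library, where any scaling of the library cancels; these ratios were described without a test. Ephb3 over Efnb1 was between 0.231 and 0.426 in WT crypts and between 0.928 and 1.17 in ApcMin/+ tumors. Ephb3 over Efnb2 was between 0.654 and 0.867 in WT crypts and between 1.34 and 1.63 in ApcMin/+ tumors. In crypts the ligand thus exceeded the receptor in every WT library for both pairs, whereas in ApcMin/+ tumors Ephb3 exceeded Efnb2 in every library and lay near Efnb1. For Ephb2 over Efnb1 the range was 0.209 to 0.462 in WT crypts and 0.583 to 0.831 in ApcMin/+ tumors.

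In tumors the ratios to Efnb1 carry the differences of both genes, with log2 fold changes of 0.43 for Efnb1, 0.059 for Ephb2 and -0.13 for Ephb3; no share over other gene pairs was computed. Ephb3 over Efnb1 was between 0.583 and 0.758 in Ctnnb1Δi.enh;ApcMin/+ tumors, below every ApcMin/+ library. Ephb2 over Efnb1 was between 0.509 and 0.557, also below every ApcMin/+ library by a narrow gap, with mean log2 ratios of -0.91 ± 0.064 (SD) against -0.53 ± 0.26 (SD). The ratios of the same receptors to Efnb2 overlapped between the tumor groups. In crypts all 4 ratios overlapped between WT and Ctnnb1Δi.enh.

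**Figure D4:**
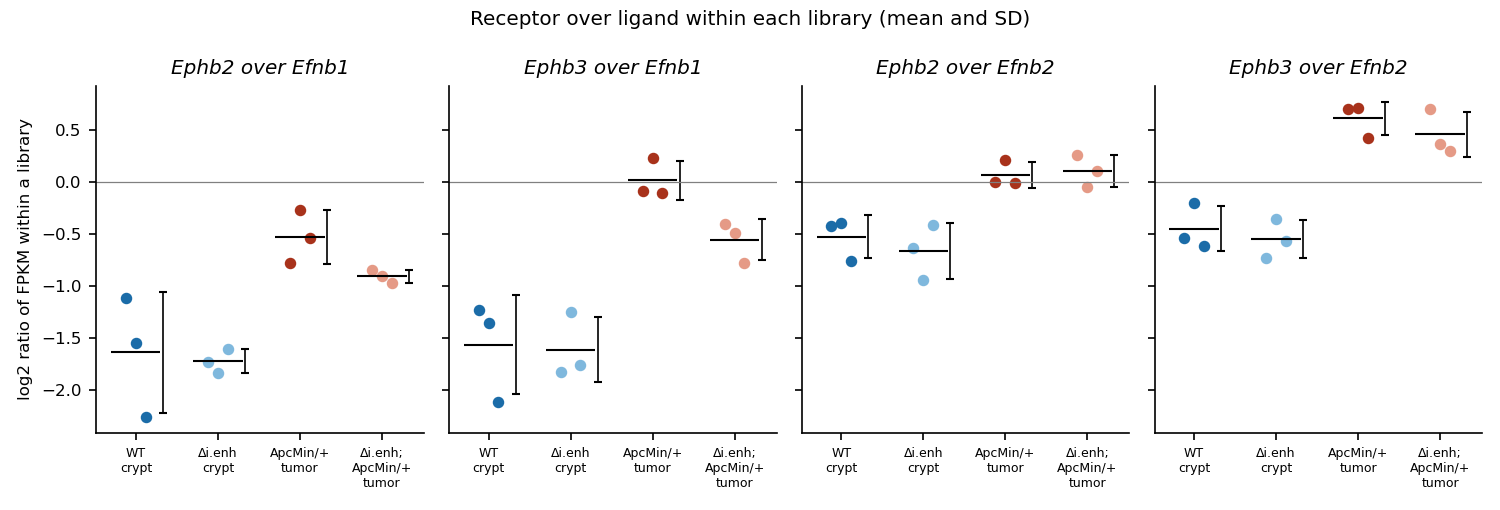
Log2 ratio of receptor FPKM to ligand FPKM within each library for Ephb2 and Ephb3 over Efnb1 and Efnb2, with points for replicates, lines for means and bars for SD. Every tumor library lies above every crypt library of the same pair, and the ratios to Efnb1 are lower in each Ctnnb1Δi.enh;ApcMin/+ library than in each ApcMin/+ library.

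The rest of the family was read for comparison. Of 14 other Eph receptors and ephrins, 4 passed the filter on low values in crypts and 6 in tumors, and 0 had an unadjusted p under 0.05 in either. The gene of smallest p was Efna4 in crypts (6.94 ± 1.17 FPKM in WT and 9.01 ± 2.84 FPKM in Ctnnb1Δi.enh, SD; limma adjusted p = 0.896) and Efna3 in tumors (0.986 ± 0.37 FPKM in ApcMin/+ and 1.54 ± 0.18 FPKM with the deletion, SD; limma adjusted p = 0.386). Ephb6, an Eph receptor whose kinase domain is inactive, differed most plainly between the tissues and is named after its values were seen. It was at 31.7, 35.3 and 41.3 FPKM in ApcMin/+ and 32.8, 27.5 and 40.2 FPKM in Ctnnb1Δi.enh;ApcMin/+ tumors, and at most 0.285 FPKM in any crypt library. Efna4, an A-type ephrin, was at a mean of 19.3 FPKM in ApcMin/+ tumors and 6.94 FPKM in WT crypts, without overlap over the 12 libraries, and Epha4 at 2.68 and 0.674 FPKM.

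**Figure D5:**
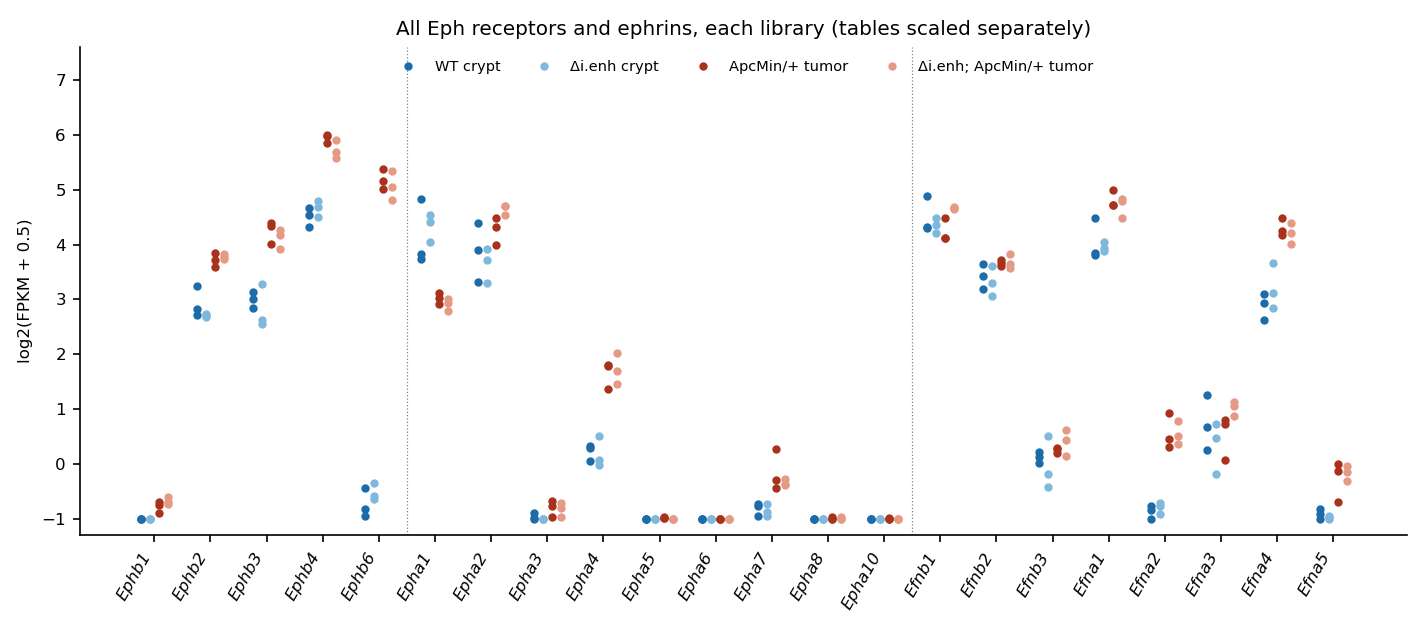
Log2 of FPKM + 0.5 for all 22 Eph receptors and ephrins in each of the 12 libraries, with dotted lines between EphB receptors, EphA receptors and ephrins. Ephb6 is near the bottom of the scale in crypts and among the higher genes in tumors, and Epha5, Epha6, Epha8 and Epha10 stay at the bottom in both.

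Genes that act with Eph receptors inside the cell or at its surface were taken as a list of 30. In crypts 28 were tested, with 16 log2 fold changes above 0 and 12 below, a median of 0.012, and 0 with an unadjusted p under 0.05. The smallest p belonged to Cdc42, a small GTPase of the cytoskeleton, at 110 ± 4.05 FPKM in WT and 126 ± 5.24 FPKM in Ctnnb1Δi.enh (SD; limma adjusted p = 0.894). In tumors 29 were tested, with 17 above 0 and 12 below and a median of 0.041; 4 were higher and 2 lower without overlap, against 11.4% and 10.6% of all genes. The 1 gene with an unadjusted p under 0.05, where 8.46% of all genes were higher at such a p, was Inppl1, which encodes the lipid phosphatase SHIP2 that binds EphA2. It was at 16.8, 14.8 and 11.9 FPKM in ApcMin/+ and 19.2, 21.0 and 17.998 FPKM in Ctnnb1Δi.enh;ApcMin/+, higher without overlap (limma adjusted p = 0.302).

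Other intestinal Wnt targets were read beside Ephb2 and Ephb3. The list is not independent of these libraries, since it was chosen with earlier results of these data known. The study had already reported lower Axin2, Lgr5, Mmp7 and Bambi in crypts with the deletion. In crypts 12 of 17 tested Wnt targets had a log2 fold change below 0, with a median of -0.32, and 3 had an unadjusted p under 0.05, all lower, against 2.36% lower over all genes: Mmp7, a Paneth cell protease, Bambi, a pseudoreceptor, and Axin2, a feedback inhibitor of the pathway. Axin2 was at 21.2 ± 1.79 FPKM in WT and 16.5 ± 2.56 FPKM in Ctnnb1Δi.enh (SD), a log2 fold change of -0.36. In tumors 15 of 19 were below 0, with a median of -0.21, and 5 had an unadjusted p under 0.05, all lower, against 6% lower over all genes. Sox9 was higher without overlap, at a log2 fold change of 0.13. The 3 of smallest p were Rnf43, which removes Wnt receptors, Prox1, and Axin2, which was at 102 ± 4.83 FPKM in ApcMin/+ and 81.3 ± 3.81 FPKM with the deletion (SD; log2 fold change -0.32; limma adjusted p = 0.270). The stem cell gene Lgr5 had log2 fold changes of -0.40 in crypts and -0.50 in tumors, with overlapping groups. Of the 5 stem cell markers, 3 were above 0 and 2 below 0 in crypts, with a median of 0.0047. In tumors all 4 tested were below 0, with a median of -0.085. Of the 19 Wnt targets in tumors 5 were lower and 1 higher without overlap, against 10.6% and 11.4% of all genes, and of the 17 in crypts 5 were lower and 0 higher, against 5.15% and 6.79%. In tumors Ephb2 and Ephb3 overlapped, like the rest of that list.

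The cell type lists in crypts showed no gene with an unadjusted p under 0.05, except Col3a1 among fibroblast markers, which was lower at a mean of 0.361 against 0.746 FPKM. All 9 Paneth cell markers had a log2 fold change below 0 in Ctnnb1Δi.enh crypts, with a median of -0.56, and Mptx2 had the smallest p of them at a log2 fold change of -0.52. WT replicate 3, with its high Paneth cell level, enters that median. Of the 9, 2 were lower without overlap, Lyz1 and Mptx2, as were 5.15% of all genes. In tumors the list was mixed, with 7 of 9 above 0 and Mptx2 lower at a log2 fold change of -1.98 with overlapping groups. Its summed level was 1524, 1703 and 1891 FPKM in ApcMin/+ and 2429, 4282 and 1245 FPKM in Ctnnb1Δi.enh;ApcMin/+, where replicate 2 stood apart. Enterocyte markers were above 0 for 7 of 8 in crypts, with Fabp2 the most abundant and Alpi, the intestinal alkaline phosphatase, of smallest p at 0.66, and goblet cell markers below 0 for 6 of 7, with Tff3 the most abundant and Agr2 of smallest p at -0.43; all of them overlapped. Proliferation genes, led by Pcna, were above 0 for 5 of 7 in crypts and 3 of 7 in tumors. Immune cell markers, led by Lyz2, were below 0 for 6 of 7 in crypts and above 0 for 4 of 6 in tumors.

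The genes most like Ephb2 and Ephb3 across libraries were found by the lower of 2 Pearson correlations of log2(FPKM + 0.5), over the 6 crypt and over the 6 tumor libraries, among 11562 genes with a mean of at least 1 FPKM in both tables. For Ephb2 they were 2700038G22Rik (lower r = 0.853), Tmem186 (0.821) and Plekha6 (0.817). For Ephb3 they were Bcl11a (0.844), Recql (0.808) and Dtwd1 (0.800). Between Ephb2 and Ephb3 themselves r was 0.483 in crypts and 0.544 in tumors. With 6 libraries and this many genes, values of this size are descriptions of these libraries.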

How the data were processed

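Small intestinal crypts and colon tumors were profiled by paired-end RNA-seq, and the authors deposited FPKM per gene and library in a table for each tissue. The authors aligned reads with Hisat2, counted them with featureCounts and tested them with DESeq2. The submitters' processing notes also name cutadapt, Cufflinks 2.2.1 and build mm10. The use of strand in counting is not given in the sources used here. Genes were matched by name; 53499 of 54409 genes shared with GENCODE M21 had the same position. Within a table, limma 3.58.1 (R 4.3.3) with a variance trend was run on log2(FPKM + 0.5) where the mean FPKM of the 6 libraries reached 0.5, with Benjamini-Hochberg adjustment at 0.05; fold changes on this scale understate those of low genes. The interaction used genes passing in both tables. The product of FPKM and length came in whole steps (within 0.1) for 100% of non-zero values; a step was taken as 1 fragment, which gives the depths. Single genes were also compared by exact two-sided permutation. No 2 libraries of a group held an identical value for a gene with at least 20 fragments, and all pairs differed by more than sampling noise. The procedure was also run on simulated data, whose outcome is not given here.

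The members and gene lists were chosen with earlier results of these data known. Named were all 8 genes; from every other list, genes with an unadjusted p under 0.05 in the table discussed (up to 3 per direction, otherwise the gene of smallest p) and the most abundant cell type marker; and the 3 genes most like Ephb2 and Ephb3. Zyx, Cdh5, Kdr, Emcn, Des, Cnn1, Sox9, Ephb6, Epha4 and Xist were named after their values were seen. Alternatives were other pseudocounts, filters, scalings, no variance trend, voom on recovered fragments, a replicate block and leaving out libraries. Promoter windows came from RefSeq.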

Additional observations from a re-analysis of the deposited data

How the results depend on the processing

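The log2 fold changes of the 8 genes in crypts and tumors passed the adjusted threshold under none of the alternatives run, and 9 of the 16 kept their direction under all of them. Efnb2 in tumors was -0.022 after rescaling to the same total, -0.014 after quantile normalization, -0.021 after rescaling without the 50 most abundant genes and -0.024 with voom. Leaving out each library in turn gave ranges that crossed 0 for Efnb2 (-0.23 to 0.039), Epha2 (-0.50 to 0.034), Efnb1 (-0.25 to 0.045) and Efna1 (-0.20 to 0.14) in crypts, and for Ephb2 (-0.0074 to 0.12), Efnb2 (-0.052 to 0.071) and Efna1 (-0.17 to 0.0026) in tumors. The cause was not tested.

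Counts of genes with an adjusted p under 0.05 were 0 in both tissues by limma, also with voom. Leaving out each library gave 0 to 3 in crypts, with 3 without WT replicate 3, and 0 to 0 in tumors. Without a variance trend 1 gene was called in tumors, Mir3473e. For the interaction 1 gene was called with a pseudocount of 0.1, Trbj1-6, and 6 with no filter, none of them an Eph receptor or ephrin. With the replicate number as a block the counts were 0 in crypts and 0 in tumors. The labels share only a number, and same-numbered libraries correlated at -0.12 to 0.054 in their deviations. Only replicate 3 in tumors had its own number as best match. With 3 libraries a group, the 95% intervals given for each gene hold the differences that the data leave possible.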
